A study of Homo sapiens with 12 samples.

Results

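The comparison described here set HL-60 cells after 72 h with decitabine against the same cells after 72 h with DMSO, the vehicle. Its members were the samples whose labels give 72 h and that have values, namely 2 decitabine libraries and 1 DMSO library. These are 3 of the 12 samples listed in the series and 3 of the 11 with values. A second DMSO well at 72 h is listed but has no column of values as the table was read here, so it was not analysed. The heading of the deposited table gives 12 library names over 11 columns of values, and the names were read in order from the first value column. Read so, the mean over pairs of the median absolute log2 difference was 0.299 within groups and 0.439 between them, against 0.429 and 0.426 with the names moved by 1 column, and every value here rests on that reading. HL-60 is an established line of human promyelocytic leukaemia, of wild-type genotype per the labels. Cells were seeded in 6-well plates at 100000 per mL, in duplicate wells, and decitabine was given at 100 nM at 0, 24 and 48 h, so that the 72 h wells had received all 3 additions. Total RNA was depleted of ribosomal RNA and read as 50 bp single ends. The 4 libraries from 6 h and the 4 from 120 h, decitabine and DMSO in pairs, served for the estimate of the spread and as a reference in time. Nothing in the labels says that duplicate wells came from separate cultures, so the p-values measure only the spread between wells, which may be technical.

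Decitabine is a deoxycytidine analogue that cells phosphorylate and build into DNA, where it traps DNA methyltransferases and leads to their loss. Methyl groups on CpG dinucleotides are then no longer copied to the new strand at replication, so methylation is diluted as cells divide. In normal adult tissue and in many leukaemias, CpG methylation at promoters keeps germ-line genes and genes of other lineages silent, and myeloid leukaemia cells are known to turn on such genes and to move towards mature myeloid states after the drug. The study did not measure methylation in the values used here.

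After 72 h, genes silent or low in DMSO cells had turned on, single genes of eosinophils and of neutrophil granules had risen, and a smaller set that included MYC had fallen. GCNA, a germ-cell nuclear protein gene on the X chromosome, stood at 43 normalised counts in the DMSO library and at 1966 and 3848 in the decitabine libraries. Both decitabine values lay above those of all 5 DMSO libraries of the series, which ran from 43 to 59.3 (log2 fold change 5.97, SE 0.39, limma adjusted p = 0.00131). Limma called 303 of 16152 genes higher, 1.88% of those tested, and 50 lower, 0.31%. The count of called members in each list below is to be set beside these shares. With quantile normalisation the numbers were 284 and 97, and against all 5 DMSO libraries in place of the single one at 72 h they were 1402 and 834. All log2 fold changes are on the log2(normalised count + 1) scale, and genes with an adjusted p under 0.05 are termed called, 353 or 2.19% in all. Of the genes tested, 949 were below 10 in every DMSO library and so passed the filter only through decitabine libraries. Of these 10.2% were called higher, against 1.35% of the other 15203, so list counts and medians that hold such genes are a description. In all 353 called genes both decitabine libraries lay on the same side of the DMSO library, which held for 65.2% of all genes tested. Normalised counts are given in the order DMSO, decitabine replicate 1 and decitabine replicate 2, and they are not divided by gene length, so levels are compared within a gene only. Up to 4 called genes of each list were named by a rule on fold change, and further called members were added after their values were seen. The fit was also repeated with 1 library left out. Leaving out a library of 6 or 120 h keeps every 72 h fold change and alters only the estimate of the spread, and so the adjusted p.

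**Figure D1:**
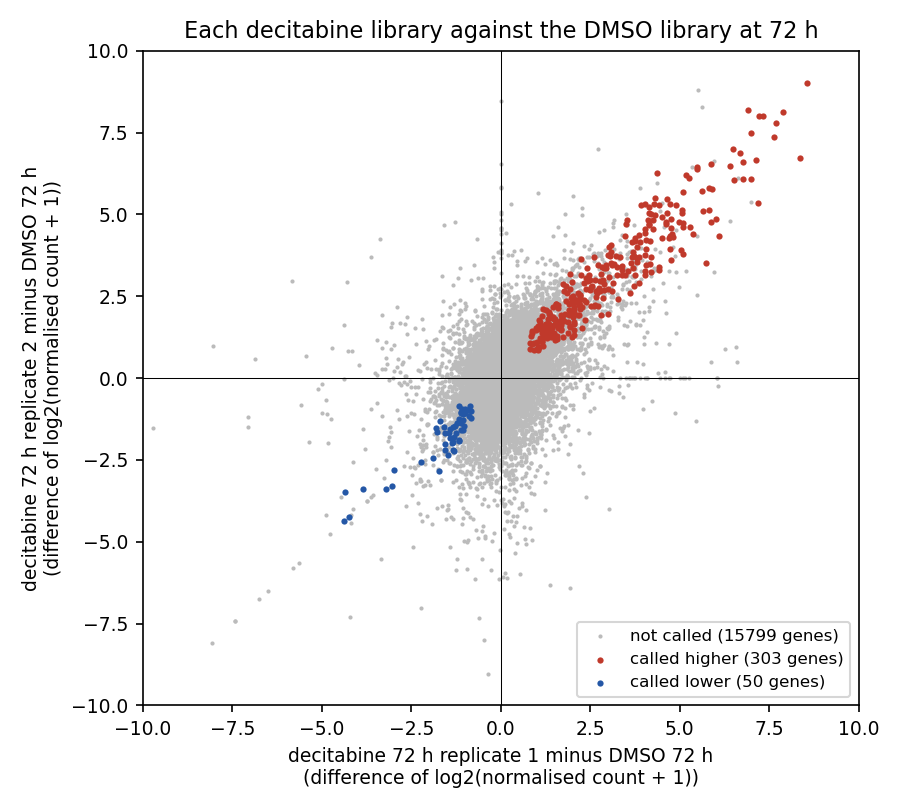
Each point is a gene tested at 72 h, with the difference of log2(normalised count + 1) between decitabine replicate 1 and the DMSO library on the x axis and that of decitabine replicate 2 on the y axis, called genes in colour. The 303 genes called higher lie in the upper right and the 50 called lower in the lower left, while many uncalled genes lie off the diagonal, where the 2 decitabine libraries differ.

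Promoters of 7 of these genes are shown because CpG dinucleotides are where DNA is methylated, and because they differ widely in CpG content. They belong to genes that rose, come from RefSeq (GRCh38.p14), and each run gives the 250 bases before the start, 5′ to 3′ on the strand of the gene, with each CpG in capitals. GCNA (chrX:71578187-71578436, plus strand) and MAGEB2 (chrX:30215313-30215562, plus strand) are germ-line genes, and H1-6 (chr6:26108136-26108385, minus strand) encodes a testis linker histone. S100A6 (chr1:153535992-153536241, minus strand) and CR1 (chr1:207495907-207496156, plus strand) were already on in DMSO cells. CD3D (chr11:118342706-118342955, minus strand) and IL5RA (chr3:3110375-3110624, minus strand) belong to lymphocytes and eosinophils.
GCNA: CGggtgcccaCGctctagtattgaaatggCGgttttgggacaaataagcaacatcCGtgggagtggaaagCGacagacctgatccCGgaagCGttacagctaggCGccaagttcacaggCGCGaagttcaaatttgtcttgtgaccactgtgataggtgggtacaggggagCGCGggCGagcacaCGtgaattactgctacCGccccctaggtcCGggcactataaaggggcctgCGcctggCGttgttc
MAGEB2: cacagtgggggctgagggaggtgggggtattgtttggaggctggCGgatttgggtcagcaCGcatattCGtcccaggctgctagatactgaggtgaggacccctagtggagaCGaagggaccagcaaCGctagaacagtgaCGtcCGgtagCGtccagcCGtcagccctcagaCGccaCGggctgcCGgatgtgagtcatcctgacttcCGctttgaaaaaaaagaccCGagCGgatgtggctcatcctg
H1-6: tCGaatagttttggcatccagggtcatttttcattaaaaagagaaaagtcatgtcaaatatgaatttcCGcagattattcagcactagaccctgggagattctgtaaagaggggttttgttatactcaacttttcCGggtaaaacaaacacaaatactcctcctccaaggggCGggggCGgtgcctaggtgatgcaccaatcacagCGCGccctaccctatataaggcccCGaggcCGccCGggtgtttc
S100A6: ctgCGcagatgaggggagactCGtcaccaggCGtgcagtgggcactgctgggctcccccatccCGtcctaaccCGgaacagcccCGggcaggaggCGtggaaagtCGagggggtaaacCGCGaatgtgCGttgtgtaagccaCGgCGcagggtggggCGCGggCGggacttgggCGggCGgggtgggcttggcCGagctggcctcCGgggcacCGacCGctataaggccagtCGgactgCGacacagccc
CR1: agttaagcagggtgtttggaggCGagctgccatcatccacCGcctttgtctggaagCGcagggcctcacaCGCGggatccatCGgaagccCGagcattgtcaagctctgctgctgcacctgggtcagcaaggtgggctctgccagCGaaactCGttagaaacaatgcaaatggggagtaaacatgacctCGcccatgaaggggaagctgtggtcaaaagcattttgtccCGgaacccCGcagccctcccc
CD3D: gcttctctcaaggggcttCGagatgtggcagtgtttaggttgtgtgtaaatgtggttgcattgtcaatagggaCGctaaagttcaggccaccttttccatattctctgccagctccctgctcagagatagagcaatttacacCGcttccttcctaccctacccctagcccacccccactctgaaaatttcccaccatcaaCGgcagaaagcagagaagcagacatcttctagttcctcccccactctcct
IL5RA: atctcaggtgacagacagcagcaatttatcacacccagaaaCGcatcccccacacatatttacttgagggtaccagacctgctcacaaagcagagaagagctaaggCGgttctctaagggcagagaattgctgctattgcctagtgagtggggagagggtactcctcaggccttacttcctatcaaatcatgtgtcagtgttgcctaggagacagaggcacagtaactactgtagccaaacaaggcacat
The runs hold 18 CpG for GCNA, 15 for MAGEB2, 10 for H1-6, 24 for S100A6, 12 for CR1, 4 for CD3D and 2 for IL5RA. Over all 35116 RefSeq windows of this length the median was 11 CpG, with quartiles of 3 and 23, and 93.9% held at least 1. Genes that rose therefore included some with CpG-rich and some with CpG-poor starts. A comparison of CpG content between called genes and the rest was void, since 69.6% of the genes called higher and 66.8% of those tested had a window, under the 80% needed.

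The 2 decitabine libraries at 72 h lay farther apart than any other pair of duplicates, so all values are given for each. By median absolute log2 difference, replicate 1 lay 0.308 and 0.298 from the decitabine 120 h libraries and 0.389 from DMSO at 72 h. Replicate 2 lay 0.625 and 0.632 from the same 120 h libraries and 0.673 from DMSO at 72 h. Of the 16152 genes, 4222 (26.1%) stood over 2-fold apart in this pair and 889 over 4-fold, against 7.25 to 10.8% over 2-fold in the other pairs. Estimated depth was 19634339 and 23082229 counts in the decitabine libraries and 25712235 in the DMSO library. The non-coding transcript FP671120.7 took 5.25% of counts in replicate 1, 0.106% in replicate 2 and 0.0943% in DMSO, and the 13 mRNAs of the mitochondrial genome took 0.662, 0.26 and 0.386%. In the 120 h libraries FP671120.7 took 7.31 and 3.89% with decitabine and 8.08 and 10.9% with DMSO. The part that the distance between the 2 decitabine libraries has in each result was not tested. Any gene for which the replicates lie apart is described by its values. Markers of HL-60 were present in all 3 libraries but did not all keep their level, and those not given here are given further below. MYC was called lower, and ELANE and CEBPA stood below DMSO in both decitabine libraries. In CTSG both lay above DMSO, and in MPO, CD33, PRTN3, AZU1 and SPI1 they lay on opposite sides of it. MPO, the peroxidase of promyelocytes, stood at 108300 in DMSO and at 134800 and 86060 with decitabine, and the surface marker CD33 at 1022, 1122 and 608.

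Germ-line and cancer-testis genes, which most adult tissues keep silent, included several of the largest fold increases. Of 71 cancer-testis antigen genes listed, 14 passed the filter (10 or more in at least 2 libraries) and 7 of those rose, against 1.88% of all genes tested. Of the 14, 9 lay below 10 in every DMSO library and could pass only through decitabine libraries. Over all such genes 10.2% were called higher. MAGEB2, a member of the MAGE family of antigens, stood at 2.99 in DMSO and at 134 and 131 with decitabine, with the other DMSO libraries at 4.79 to 9.61. FAM9C, another X-linked testis gene, stood at 6.05, 838 and 2049, so the decitabine libraries lay far above DMSO and also apart from one another. PAGE5 had a listed DMSO value of 0 and stood at 26.1 and 27.7, and DDX53, a helicase gene, was listed at 0 and stood at 15.2 and 38.7. PASD1, FMR1NB and PAGE2B rose as well, from a DMSO library listed at 0, to between 12.6 and 27.2. PAGE genes have near-identical copies, and their values are uncertain. The calls of DDX53, PASD1, FMR1NB and PAGE2B were lost without at least 1 of the other libraries, that of DDX53 without decitabine 120 h replicate 1 (limma adjusted p = 0.0734).

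Of 50 germ-cell, meiosis and piRNA genes listed, 18 passed the filter and 4 rose, against 1.88% of all genes tested. Of these 4, 3 rose from below 10 in every DMSO library. MAEL, which acts in the piRNA pathway that silences transposons in the germ line, stood at 0.414 in DMSO and at 128 and 93.1 with decitabine. HORMAD1, which organises meiotic chromosome axes, stood at 2.32, 119 and 244 (log2 fold change 5.69, SE 0.63, limma adjusted p = 0.00398), and in all other DMSO libraries it was at 3.25 or less. DAZL, which binds mRNAs in germ cells, stood at 0.887, 72.7 and 44.9. PIWIL4, a PIWI protein that binds piRNAs, differed from these in that it was on in DMSO cells, at 225, and rose to 942 and 567. Its call did not hold once decitabine 120 h replicate 1 was left out (limma adjusted p = 0.107). The median log2 fold change was 3.61 over the tested cancer-testis genes and 1.36 over the tested germ-cell genes, against 0.09 over all genes tested, and genes silent in DMSO entered these medians only where they came on. Further germ-line genes outside the lists, named after their values were seen, were PNLDC1, which trims piRNAs, at 2.18, 84.6 and 74.9, and GPAT2, listed at 0 in DMSO and then at 48.1 and 51.9. The call of PNLDC1 was lost in 2 of 10 leave-one-out fits.

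Among the 10 largest increases of genes under 10 in all DMSO libraries were PNMA5, a gene derived from a retrotransposon gag protein, and RHOXF2B, an X-linked homeobox gene of the testis. PNMA5 (chromosome X, 152988824 to 152994116) was listed at 0 in the 72 h DMSO library and stood at 379 and 513 with decitabine, with 0.696 to 3.26 in the other DMSO libraries. RHOXF2B was listed at 0 and stood at 125 and 180, and it has the near-identical copy RHOXF2. SEMA3E, a secreted guidance factor, stood at 1.27, 205 and 292, and COL14A1, a collagen, at 1.86, 397 and 287. The non-coding AL160408.3 stood at 0.498, 221 and 387, and the pseudogene SP3P was listed at 0 and stood at 102 and 116. In each of these the lowest decitabine library at 72 h was far above the highest DMSO library of any time.

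Single histone genes came on, while the list as a whole lay apart in the 2 decitabine libraries. Of 66 histone genes listed, 56 were tested and 7 rose, 6 of which were under 10 in all DMSO libraries, and none fell. H1-6 stood at 0.997 in DMSO and at 414 and 445 with decitabine, and H1-1, a linker histone gene beside it, at 0.498, 297 and 245 (limma adjusted p = 0.00149). H2AC14 was listed at 0 and stood at 235 and 281, and H3C3 was listed at 0 and stood at 329 and 105. H4C4 was on in DMSO, at 79.7, and rose to 563 and 306. Over the 56 tested members the median was 0.15 in replicate 1 and -0.75 in replicate 2, both against the DMSO library. Both decitabine libraries lay below the DMSO library in 21 members, against 27.6% of all genes tested. Without decitabine 72 h replicate 1, which leaves that arm with a single library, 9 members were called higher and 29 lower, where 16.6 and 12.8% of all genes were so called. Without replicate 2, 8 were higher and 0 lower, against 2.83 and 1.67%. Histone genes have close copies and their values are uncertain. H1-1, H2BC3, H3C3, H1-6 and H4C4 lie within a cluster of 6 genes called higher on chromosome 6, from 25962802 to 26189112, which also holds TRIM38 (RefSeq coordinates on GRCh38).

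The X chromosome held 29 of the 285 genes called higher that have coordinates in RefSeq (10.2%), against 3.34% of the genes tested that have them, and none called lower. Of the 474 X-linked genes tested, 6.12% were called higher, against 1.88% over all genes. The 29 included 16 genes under 10 in all DMSO libraries, among them MAGEB2, PAGE5, PASD1 and PNMA5, and among X-linked genes not under 10 in all DMSO libraries 13 of 430 (3.02%) were called higher, against 1.35% of all such genes and 2.51% on chromosome 4, the next highest. Some genes called higher lay near one another. With a window of 100000 bases between called genes, 30 of the 285 lay in 12 clusters. No such count was made for all genes tested, and some clusters hold related genes, so this is a description. The clusters include PRG3 and PRG2 on chromosome 11 (57376769 to 57390650), ORM1 and ORM2 on chromosome 9, and XK, CYBB and DYNLT3 on chromosome X (37685791 to 37847571). CYBB is the catalytic subunit of the phagocyte oxidase and XK a red-cell membrane protein whose gene lies beside it. XK stood at 9.47 in DMSO and at 126 and 62.9 with decitabine. DYNLT3, a dynein light chain, stood at 229, 488 and 653, and the calls of XK, CYBB and DYNLT3 were lost in 2, 4 and 8 of 10 leave-one-out fits.

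**Figure D2:**
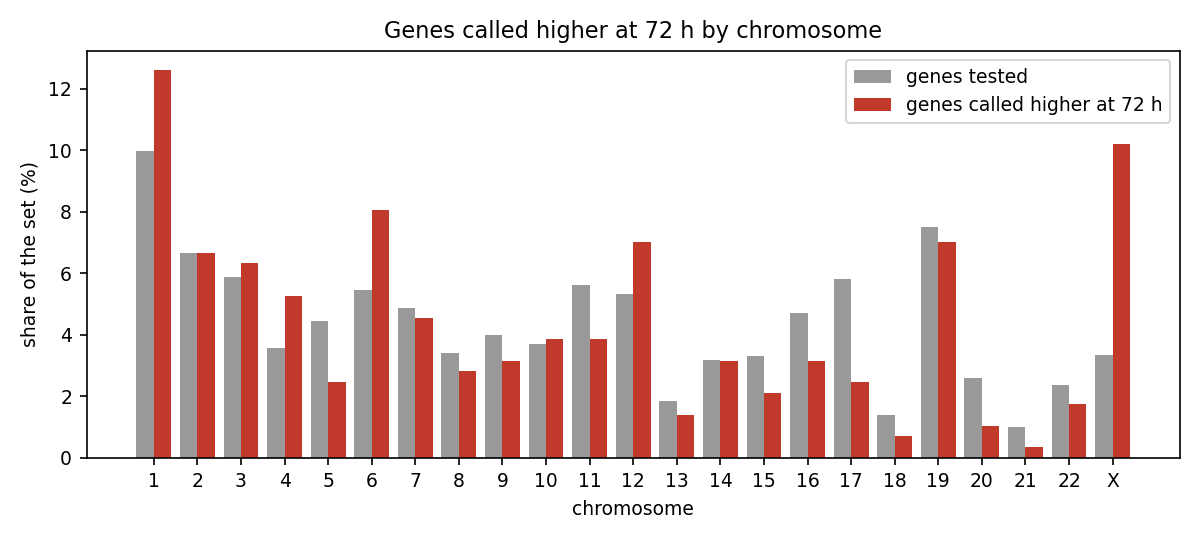
Bars give, for each chromosome on the x axis, its share (%) of all genes tested (grey) and of the genes called higher at 72 h (red), for genes with coordinates in RefSeq. Chromosome X takes 3.34% of the genes tested and 10.2% of those called higher, and chromosome 1, the highest in both sets, 9.98 and 12.6%.

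Zinc-finger genes were chosen after their values were seen, since 13 genes with a ZNF symbol were called higher. These were 2.61% of the 499 tested, near the 1.88% over all genes, and 1 was called lower. ZNF595 stood at 3.74 in DMSO and at 514 and 320 with decitabine, and ZNF93 at 10.7, 230 and 369. Most of these genes, 9 of the 13, lie on chromosome 19, which holds 255 of the 499.

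Eosinophil, basophil and mast cell genes formed the list with the most members called. These cells arise from a myeloid progenitor that expresses GATA2 and GATA1 and the receptor for interleukin 5, and their granules hold cationic proteins. Of 30 listed genes, 23 were tested and 10 rose, against 1.88% of all genes tested. Of the 23, 8 lay below 10 in every DMSO library and passed the filter only through decitabine libraries, and 6 of the 10 that rose were not among these. The median log2 fold change of the 23 was 2.17, with 2.05 in replicate 1 and 2.21 in replicate 2, and it includes the 8. Of the granule proteins, PRG2 was already on in DMSO, at 16510, and reached 67660 and 81830, the largest increase in mean normalised count among the 303. EPX, the eosinophil peroxidase, stood at 68.3, 1244 and 770, and PRG3, a homologue of PRG2, at 4.98, 96.9 and 52.5. In all 3 the decitabine libraries lay above every DMSO library of the series.

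The receptors and enzymes of this lineage followed from lower levels. IL5RA, the receptor chain for the eosinophil growth factor interleukin 5, stood at 1.26 in DMSO and at 244 and 218 with decitabine. Its DMSO library at 72 h was low among DMSO libraries, since the others held 4.01 to 13.2, and the effect at 120 h was 6.23 on the log2 scale against 6.68 at 72 h. IL1RL1, the receptor for interleukin 33, stood at 2.03, 134 and 253, and PTGDR2, a receptor for prostaglandin D2, at 1.99, 94.1 and 80.9. HDC, which makes histamine, was listed at 0 and stood at 55.9 and 54.9, CPA3, a mast cell protease, stood at 4.77, 70.2 and 64.6, and the histamine receptor gene HRH4 at 81.9, 416 and 429. The call of CPA3 was lost in 6 of 10 leave-one-out fits. CLC, the Charcot-Leyden crystal protein of eosinophils, stood at 17.9, 154 and 56 and RNASE2, an eosinophil ribonuclease, at 824, 3641 and 1973, and neither was called. Of genes that define mast cells and basophils, TPSAB1, a tryptase gene, was listed at 0 in all 3 libraries, FCER1A stood at 0, 0.59 and 0, and KIT at 54, 23.9 and 44.6. CCR3, the eotaxin receptor, stood at 3.25, 16.3 and 201 and was not called, as its replicates lay far apart. These are bulk libraries, in which more cells of a type and more RNA per cell cannot be told apart.

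Neutrophil genes rose in part. Neutrophils pack secondary and tertiary granules late in maturation, after the primary granules that promyelocytes such as HL-60 already hold. Of 28 secondary and tertiary granule genes listed, 24 were tested and 6 rose, and of 37 neutrophil receptor and cytosolic genes, 34 were tested and 5 rose. Over all genes tested 1.88% were called higher. HP, which encodes haptoglobin and is stored in these granules, stood at 540 in DMSO and at 2729 and 4031 with decitabine. ORM1, the acid glycoprotein orosomucoid, stood at 354, 1469 and 1595 and its close copy ORM2 at 116, 430 and 378. HGF, hepatocyte growth factor, stood at 1167, 3773 and 4396, TCN1, which binds cobalamin, at 28.8, 155 and 244, and MMP25, a membrane protease, at 18, 152 and 73.5. The calls of TCN1 and MMP25 did not hold once decitabine 120 h replicate 2 was left out (limma adjusted p = 0.0618 and 0.0843).

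Among the receptors and cytosolic effectors, CR1, which binds complement-coated particles, stood at 713 in DMSO and at 3199 and 2710 with decitabine (log2 fold change 2.04, SE 0.20, limma adjusted p = 0.00286). ANXA1, an annexin of neutrophil cytosol, stood at 1340, 4419 and 4892. FCGR2A, an Fc receptor, stood at 358, 1244 and 1387, S100A12 at 531, 1482 and 1631, and the maltase MGAM at 422, 1145 and 1088. In these 5 the lowest decitabine library was above the highest DMSO library of any time. The call of FCGR2A did not hold once decitabine 120 h replicate 1 was left out (limma adjusted p = 0.0574), nor that of MGAM in 6 of 10 leave-one-out fits. The list median was 1.39 in replicate 1 and 0.55 in replicate 2, so the level reached differed between the libraries. CYBB, the catalytic subunit of the phagocyte NADPH oxidase, which makes superoxide, rose too (5061, 11170 and 10990). The call of CYBB did not hold once decitabine 120 h replicate 1 was left out (limma adjusted p = 0.0604).

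Primary granule genes did not move together. Of 26 listed, 23 were tested and only CD63, a granule membrane protein, was called, at 1258 in DMSO and at 2593 and 2269 with decitabine. The call of CD63 was lost in 8 of 10 leave-one-out fits, with a limma adjusted p of up to 0.115 without decitabine 120 h replicate 2. The serine proteases differed between the replicates. ELANE, neutrophil elastase, stood at 868 in DMSO, 456 in replicate 1 and 156 in replicate 2 (log2 fold change -1.70, limma adjusted p = 0.13), PRTN3 at 3035, 3695 and 1399, and AZU1 at 436, 487 and 233. Cathepsin G was level, with CTSG at 1156, 1214 and 1346. In ELANE both decitabine libraries were below every DMSO library, whereas in PRTN3 and AZU1 the 2 libraries lay on opposite sides of the DMSO library.

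Monocyte and macrophage genes went both ways. Of 38 listed genes 26 were tested, 3 rose and 3 fell. In 14 of the 26 both decitabine libraries lay above the DMSO library, against 37.5% of all genes tested. In 10 both lay below it, against 27.6%. Of the 26, 4 lay below 10 in every DMSO library and passed the filter only through decitabine libraries, so these shares are a description. MS4A6A, a membrane protein of monocytes, stood at 148 in DMSO and at 17.1 and 14 with decitabine, where the other DMSO libraries held 110 to 167. CCR2, the receptor for the chemokine CCL2, stood at 214, 71.2 and 66.2, and the cytokine gene TNFSF13B, which encodes BAFF, at 362, 140 and 90. CD68, a lysosomal glycoprotein of macrophages, went the other way, at 412, 1591 and 1225 (log2 fold change 1.76, SE 0.23, limma adjusted p = 0.0097). LGALS3, galectin 3, stood at 98, 469 and 1243 and VSIG4, a complement receptor of tissue macrophages, at 9.34, 67.9 and 68.8. CD14 was not called, at 31, 61.5 and 22.9, and CD163 stood at 1.45, 0 and 1.11. The calls of CCR2, LGALS3, VSIG4 and TNFSF13B were each lost without a single other library, with limma adjusted p of 0.0511 for CCR2 without DMSO 6 h replicate 2 and of 0.0616 for LGALS3 and 0.114 for VSIG4 without decitabine 120 h replicate 2. TNFSF13B was lost in 8 of 10 such fits.

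**Figure D3:**
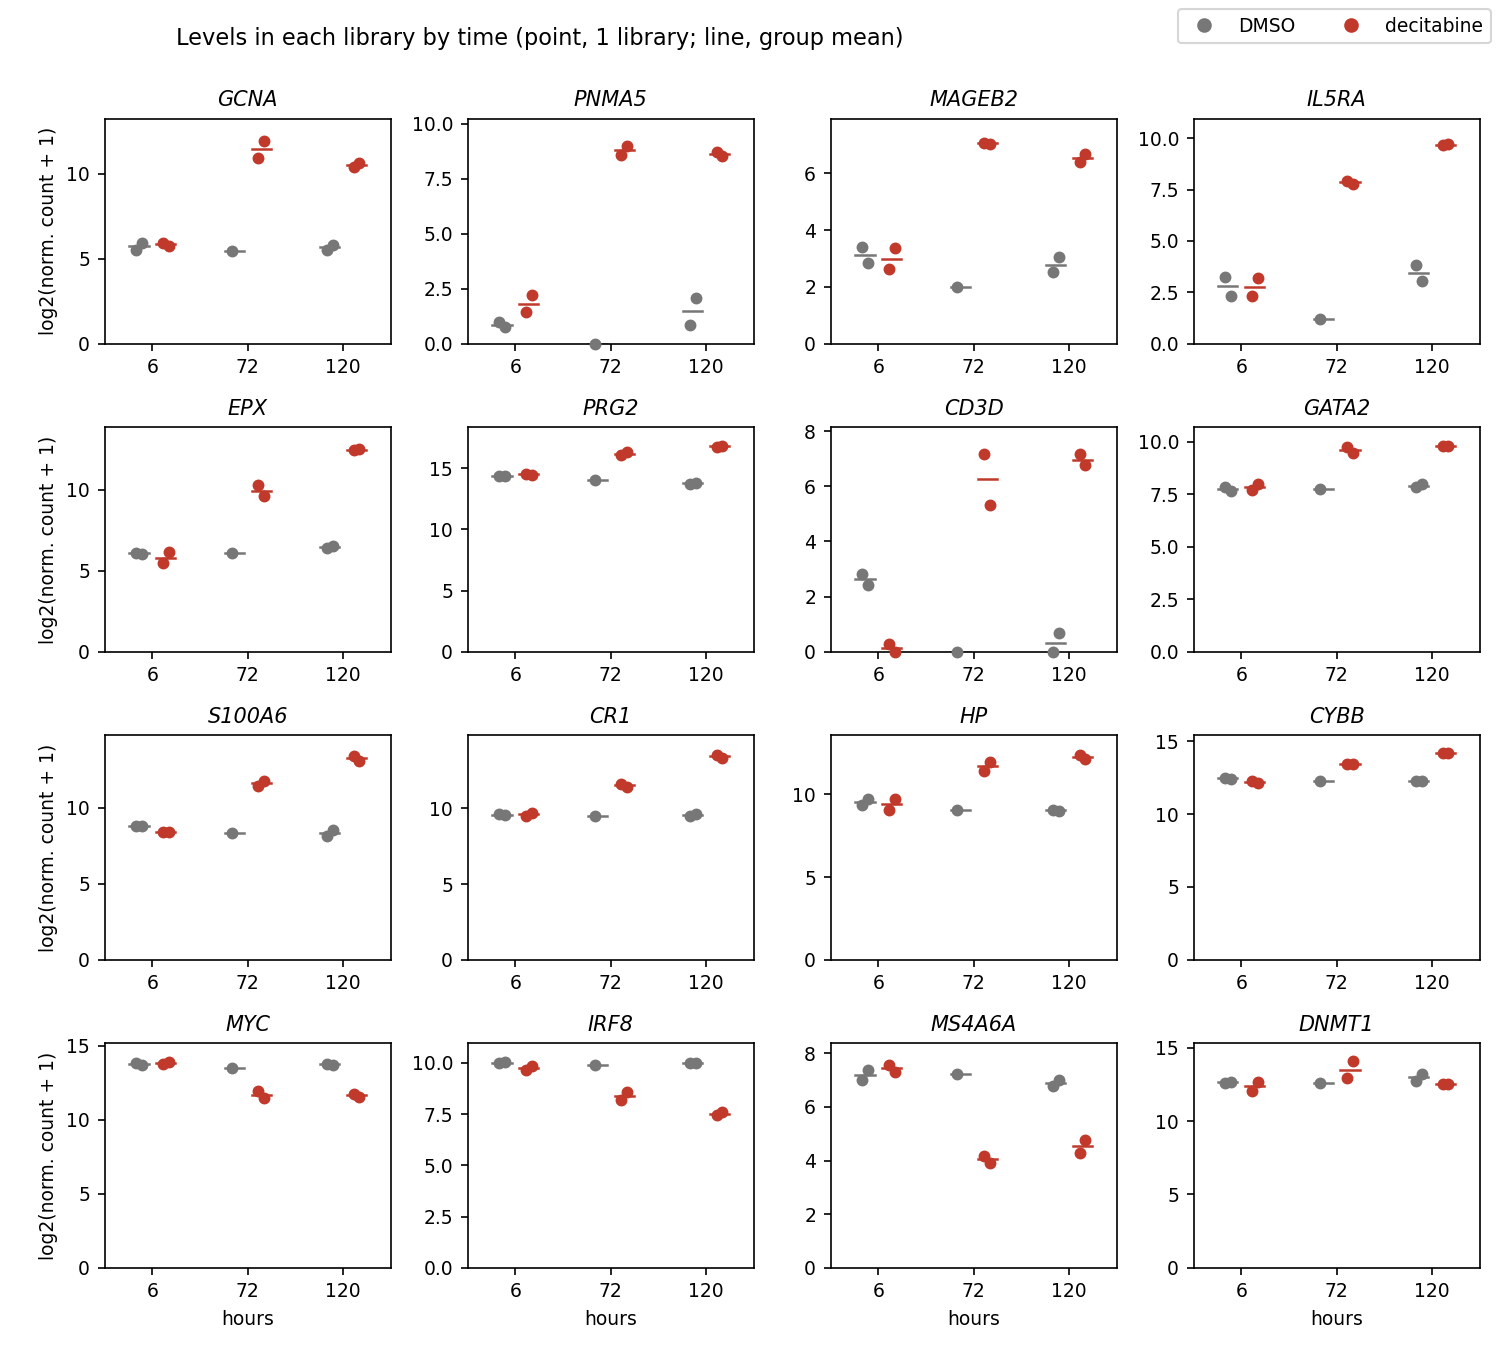
Levels of 16 genes as log2(normalised count + 1) on the y axis against hours on the x axis, with grey points for DMSO libraries, red points for decitabine libraries and a line for the group mean. DMSO at 72 h is a single library. With decitabine GCNA stood at 1966 and 3848 at 72 h and at 1348 and 1554 at 120 h, CR1 at 3199 and 2710 and then at 11940 and 10260, and DNMT1 lay apart in the 2 decitabine libraries at 72 h (7753 and 17390).

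Of 69 haematopoietic transcription factor genes listed, 52 were tested, 2 rose and 1 fell, where 1.88 and 0.31% of all genes tested were so called. GATA2, which acts in progenitors and in the mast cell and eosinophil lineages, stood at 214 in DMSO and at 878 and 711 with decitabine (log2 fold change 1.88, SE 0.22, limma adjusted p = 0.00575). IKZF3, a lymphoid zinc-finger factor, stood at 18.3, 67.2 and 98.4. IRF8, which directs monocyte fate, stood at 949, 294 and 379, below all other DMSO libraries at 1008 to 1044. In the erythroid and megakaryocyte list GATA1 rose from a DMSO library listed at 0 to 55.5 and 34.3, and GFI1B, its partner in these lineages, stood at 3.11, 42.4 and 35.7. The call of GATA1 was lost in 4 of 10 leave-one-out fits and that of IKZF3 in 2 (limma adjusted p = 0.0656 and 0.0618 without decitabine 120 h replicate 2).

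The factors that set the neutrophil programme were not called. CEBPE, needed for secondary granules, stood at 1442 in DMSO and at 2487 and 2685 with decitabine, above every DMSO library, with a limma adjusted p of 0.0519. CEBPA, which acts before it, stood at 1817, 1469 and 494, SPI1 at 529, 569 and 345, CEBPB at 236, 292 and 107, and GFI1 at 2106, 2195 and 1572. In all 4 replicate 2 was the lowest of the 3 libraries, and in 3 of them replicate 1 was the highest. MYB, a factor of immature cells, stood at 8061, 8608 and 17260 and was not called.

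Of 64 cytokine receptor genes listed, 52 were tested and 5 rose, against 1.88% of all genes tested. All 5 are for interleukins, and IL5RA and IL1RL1 were described with the eosinophil genes. IL1R1, the signalling receptor for interleukin 1, stood at 2.39 in DMSO and at 76.5 and 64.6 with decitabine. IL4R stood at 129, 327 and 336 and IL17RA at 1783, 3615 and 3288. The calls of IL4R and IL17RA were lost in 8 of 10 leave-one-out fits, with a limma adjusted p of 0.0895 for IL4R without decitabine 120 h replicate 2. Of 28 tested C-type lectin and Siglec receptors, CLEC7A, which binds fungal glucans, stood at 29.2, 189 and 190 and SIGLEC6 at 28.5, 209 and 308 (limma adjusted p = 0.0034).

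Some inflammatory genes rose. Of 43 NF-kB pathway and inflammatory genes listed, 34 were tested and 6 rose, against 1.88% of all genes tested. In 26 of the 34 both decitabine libraries lay above the DMSO library, against 37.5% of all genes tested. Of the 34, 5 lay below 10 in every DMSO library and passed the filter only through decitabine libraries, so this share is a description. NF-kB is a transcription factor that several receptors of innate immunity switch on, and TNFAIP3 is both its target and its inhibitor. TNFAIP3 stood at 219 in DMSO and at 555 and 880 with decitabine. Its DMSO library at 72 h was low among DMSO libraries, since the others held 291 to 365. IL1B stood at 6.05, 46.9 and 53.6, and PTX3, a secreted pattern receptor, at 89.7, 341 and 380. TNFAIP2 stood at 277, 749 and 805 and TNFAIP6 at 67.1, 169 and 235. The calls of TNFAIP3 and IL1B were lost without a single decitabine 120 h library (limma adjusted p of up to 0.0857 and 0.0585), and those of TNFAIP2 and TNFAIP6 in 6 and 8 of 10 such fits. Of 28 tested immediate-early genes, IER3 (58.8, 361 and 273) and BTG2 (32.1, 217 and 150) rose. Of 20 tested chemokine and chemokine receptor genes, CCL2 (36.5, 364 and 197) and CCRL2 (2.17, 33.8 and 26.8) rose and CCR2 fell. The call of CCRL2 did not hold once decitabine 120 h replicate 2 was left out (limma adjusted p = 0.0799).

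Interferon-stimulated genes and sensors of nucleic acids held 2 calls each, where 1.88% of all genes tested were called higher. Of 41 interferon-stimulated genes tested, GBP2, a guanylate-binding protein, rose from 40.4 in DMSO to 478 and 1179 with decitabine, and LAMP3 from 21.7 to 126 and 145. The list median was 0.56 against 0.09 over all genes, and 18 of the 41 lay above all DMSO libraries in both replicates, against 18.2% of all genes tested. Of the 41, 4 lay below 10 in every DMSO library and passed the filter only through decitabine libraries, so the median and the share are a description. TLR8, a receptor for single-stranded RNA, stood at 133, 384 and 297 and TLR6 at 44.9, 118 and 122, the only 2 called of 31 sensor and adaptor genes. Of 26 tested MHC class I genes HLA-E rose (1932, 3535 and 5199), and none of 6 MHC class II genes was called. Without a single decitabine 120 h library the limma adjusted p rose to 0.0521 for GBP2, 0.0567 for LAMP3, 0.0792 for TLR8, 0.114 for TLR6 and 0.115 for HLA-E.

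Genes that mark cell types foreign to HL-60 were measured as a check on what the wells held. In the T-cell and NK-cell list 14 of 42 genes were tested and 5 rose. Of the 14, 5 lay below 10 in every DMSO library, and CD3D, SH2D1A and GNLY are among these. The summed level of the list was 853 in DMSO and 2256 and 1500 with decitabine, against 787 to 878 in the other DMSO libraries. In this sum CD4 alone stood at 637 in DMSO and at 800.5 and 426 with decitabine. CD3D, a chain of the T-cell receptor complex, had a listed DMSO value of 0 and stood at 145 and 39.3, but CD3E stood at 0, 1.68 and 0, CD8A was listed at 0 in all 3, and CD3G stood at 14, 18.7 and 35.4. TRDC stood at 28.9, 433 and 387 and TRAC, another constant segment of the same locus, at 14.5, 197 and 221. SH2D1A, an adaptor of T and NK cells, stood at 0.88, 121 and 53.6, and GNLY, a granule peptide of NK cells, at 1.57, 83.2 and 38.1.

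Of the B-cell genes 8 of 26 were tested, with summed levels of 543 in DMSO and 477 and 403 with decitabine. CD24 made up most of these sums (471, 353 and 270). FCRL1 rose (0.958, 20.5 and 38.4), while MS4A1 was listed at 0 in all 3. The call of FCRL1 was lost in 5 of 10 leave-one-out fits (limma adjusted p of up to 0.0728). Of the stromal and endothelial genes 13 of 35 were tested, with summed levels of 2561, 6667 and 6155, and VIM, vimentin, which leukocytes also express, made up most of this (1424, 4002 and 3661). COL14A1, LUM (0.699, 35.1 and 65.2) and PECAM1 (523, 1087 and 1786) rose too, whereas COL3A1 and CDH5 were listed at 0 in all 3 libraries and COL1A1 stood at 5.46, 1.26 and 2.53. The calls of LUM and PECAM1 were lost without single libraries (limma adjusted p of up to 0.0709 and 0.109). No epithelial (9 tested of 32) or neuronal gene (7 tested of 28) was called, and the summed epithelial level was 66.5, 173 and 173. Of erythroid and megakaryocyte genes, HBB, HBA1 and PF4 were listed at 0 in all 3 libraries, and ITGA2B (6.17, 26.4 and 46.7) and THBS1 (18.5, 183 and 171) rose. The summed level was 10330, 8139 and 7439, and TFRC made up most of it (8646, 6078 and 5348). The calls of ITGA2B and THBS1 did not hold once decitabine 120 h replicate 2 was left out (limma adjusted p = 0.124 and 0.0834). CD3E, CD8A, MS4A1, COL3A1, CDH5, HBB, HBA1 and PF4 thus stayed at or near 0 in all 3 libraries while other members of the same lists rose.

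Abundant genes outside these lists rose too. Of the 303 genes called higher, 97 were under 10 in all DMSO libraries, 114 were at 50 or more in all of them and 92 lay between, and 20 were at 1000 or more in the 72 h DMSO library. MNDA, a nuclear protein of myeloid cells, stood at 7796 in DMSO and at 18860 and 33020 with decitabine, and PGD, an enzyme of the pentose phosphate pathway, at 5763, 12880 and 21480. TPM4, a tropomyosin, stood at 3822, 8418 and 8195, and SAMSN1, a signalling adaptor of blood cells, at 2965, 6615 and 7769. The increase was near 2-fold in TPM4 in both libraries and larger in replicate 2 for MNDA and PGD. The limma adjusted p of these 4 genes rose to between 0.0586 and 0.107 without a decitabine 120 h library.

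Among genes at 50 or more in all DMSO libraries, the largest fold changes after EPX were in the non-coding AC016074.2 (63.4, 535 and 847) and in S100A6. S100A6, a calcium-binding protein, stood at 318 in DMSO and at 2722 and 3521 with decitabine (log2 fold change 3.28, SE 0.25, limma adjusted p = 0.00149). CES1, a carboxylesterase of monocytes, stood at 364, 2345 and 2328, and CYP1B1, a cytochrome P450, at 279, 2070 and 1792. RHEX, a regulator of red-cell expansion, stood at 114, 789 and 726, NFE4 at 59.3, 328 and 471, and NAV3 at 158, 822 and 1058. The decitabine libraries of CES1 and RHEX differed by little, and those of all 6 of these genes from S100A6 on lay above every DMSO library.

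Genes that fell were fewer and were mostly abundant. Of the 50, 43 were at 50 or more in all DMSO libraries and 14 at 1000 or more, with a median of 491 in DMSO and 173 with decitabine. MYC, the transcription factor that drives ribosome and nucleotide synthesis, stood at 11410 in DMSO and at 3872 and 2839 with decitabine, against 13100 to 14310 in the other DMSO libraries (log2 fold change -1.78, SE 0.23, limma adjusted p = 0.00776). ODC1, the first enzyme of polyamine synthesis and a known MYC target, stood at 6482, 3542 and 3620. Other genes named by the size of their decrease were the chaperone gene TRAP1 (1786, 962 and 791), prohibitin PHB (3342, 1616 and 1551), PTCD3 of the mitochondrial ribosome (3355, 1871 and 1426) and the peptidase gene MIPEP (457, 153 and 99). PPA1, a pyrophosphatase, stood at 4276, 2118 and 2202, DCUN1D5 at 2258, 1039 and 1072, and KIAA0930 at 5268, 2357 and 1417. HPDL, a mitochondrial dioxygenase-like protein, stood at 162, 57.4 and 31.1. Apart from MYC, the calls in this group were lost in 8 of 10 leave-one-out fits, with limma adjusted p of up to 0.122 for ODC1 and 0.0989 for PHB without decitabine 120 h replicate 2.

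Ribosome biogenesis genes lay lower as a list, with few calls. Of 63 tested members, which build ribosomes in the nucleolus or transcribe ribosomal RNA, NOP16 (829, 387 and 433) and POLR1B, a subunit of RNA polymerase I (1520, 680 and 844), fell and none rose. In 37 of the 63 both decitabine libraries were below the DMSO library and in 31 below all 5 DMSO libraries, against 27.6 and 12.6% of all genes tested. The median log2 fold change was -0.48, with -0.68 in replicate 1 and -0.23 in replicate 2. Both calls were lost in 8 of 10 leave-one-out fits (limma adjusted p of up to 0.0828 and 0.109), while leaving out decitabine 72 h replicate 1 gave 23 members called lower and 5 higher, where 12.8 and 16.6% of all genes were so called, and leaving out replicate 2 gave 24 lower and 0 higher, against 1.67 and 2.83%. Of 19 tested genes of the MYC network only MYC was called. MXD1, a MYC antagonist, stood at 752, 1268 and 1037 and was not called. No cytosolic ribosomal protein gene of 79 was called at 72 h, with medians of -0.06 and -0.57 in the 2 libraries.

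The lowest fold changes included genes for which the 72 h DMSO library stood apart. AVIL stood at 145 in it and at 1.32 to 3.79 in the other DMSO libraries, with 6.19 and 12 in the decitabine libraries, so its direction rests on this library. BCAS3 stood at 244 against 40.9 to 59.4, the pseudogene SUB1P1 at 82.7 against 16 to 38.6, and LINC02694 at 33.8 against 4.1 to 11.2. By contrast CDK3, a cyclin-dependent kinase gene, stood at 19.8 with 13.7 to 25.9 in the other DMSO libraries, and was listed at 0 in both decitabine libraries at 72 h. AP002748.5 was listed at 0 in both as well, from 17.9, but DMSO libraries of other times reached 0. The DNA glycosylase NTHL1 stood at 70.9, 18.2 and 12.3 and the phosphatase-like PALD1 at 154, 45.7 and 20.7. Of the genes called higher, 12 had a 72 h DMSO library over 2-fold outside the range of the other 4, and of those called lower 4, against 0.916% of all genes tested. The calls of AVIL, SUB1P1, LINC02694, AP002748.5, NTHL1, PALD1 and of the non-coding CU633967.1 (71.3, 8.21 and 9.21) were lost without at least 1 other library, with limma adjusted p of up to 0.0929.

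Genes of DNA methylation, whose products include those that decitabine acts on, held no calls. None of 27 tested writers, readers and erasers was called in either direction, and their median was -0.01. Over all genes tested 2.19% were called, and at that share a list of 27 can hold none. DNMT1, the maintenance methyltransferase, stood at 6338 in DMSO, 7753 in replicate 1 and 17390 in replicate 2, where the other DMSO libraries held 6285 to 9527 (limma adjusted p = 0.334). Its mRNA was therefore well above all DMSO libraries in 1 decitabine library and within their range in the other. DNMT3A stood at 114, 92 and 190, DNMT3B at 36.8, 60.9 and 74.8, and UHRF1, which guides DNMT1 to hemimethylated CpG, at 2812, 2537 and 3187.

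Of 22 tested genes for uptake, activation and clearance of decitabine, 1 was called. NT5E, a nucleotidase of the cell surface, stood at 8.63 in DMSO and at 141 and 170 with decitabine (log2 fold change 4.02, SE 0.41, limma adjusted p = 0.00293). DCK, the kinase that activates the drug, stood at 2429, 2265 and 4245, and CDA, the deaminase that clears it, at 37.1, 94.5 and 44.4. The transporter gene SLC29A1 stood at 1001, 890 and 366, and SAMHD1, which hydrolyses the active triphosphate, at 2743, 1431 and 1984. SAMHD1 was below all DMSO libraries in both decitabine libraries and was not called (limma adjusted p = 0.148).

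Lists of the cell cycle held few calls. Among 53 DNA replication genes and 59 mitosis and spindle genes tested, none was called, where 2.19% of all genes tested were. The mitosis list had medians of 0.06 in replicate 1 and 0.65 in replicate 2. Both decitabine libraries lay above the DMSO library in 32 of the 59 mitosis genes and below it in 5, against 37.5 and 27.6% of all genes tested. In 11 of the 59 both lay above all 5 DMSO libraries, against 18.2%. In the 53 replication genes both lay above the DMSO library in 17 and below it in 11. MKI67, a marker of cycling cells, stood at 4554 in DMSO and at 8024 and 9170 with decitabine, within the range of the other DMSO libraries for 1 of them, and PCNA at 6001, 5930 and 4165. Of 28 tested CDK inhibitors and cyclins, CCND2, cyclin D2, rose (376, 659 and 786), and its call did not hold once decitabine 120 h replicate 1 was left out (limma adjusted p = 0.118). CDKN1A, which encodes p21, stood at 14.7, 54.3 and 21.8 and CDKN2C at 587, 620 and 398, and neither was called. Of 34 BCL2 family and caspase genes, BCL2A1, a survival factor, rose (107, 317 and 357), and of 62 tested damage checkpoint and repair genes NTHL1 fell.

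Metabolic genes showed single calls. HK1, a hexokinase, stood at 105 in DMSO and at 393 and 511 with decitabine, and SLC2A3, a glucose transporter, at 360, 1427 and 858, while the list of 28 glucose uptake and glycolysis genes had a median of -0.29. SCD, which desaturates fatty acids, stood at 4295, 2387 and 2134, the only call among 32 cholesterol and fatty-acid genes, although the other DMSO libraries ran from 2258 to 5057. SLC40A1, which exports iron, stood at 35.9, 143 and 199. None of 27 nucleotide synthesis genes, 25 serine and one-carbon genes, 33 stress response genes and 26 imprinted genes was called, and the single HOX gene tested was not. The calls of SLC2A3, SCD and SLC40A1 were lost without a single decitabine 120 h library (limma adjusted p of up to 0.0941, 0.108 and 0.0803). The 13 mitochondrial mRNAs, none called, had medians of 1.39 in replicate 1 and 0.04 in replicate 2, and of 12 tested retroelement-derived genes PNMA5 and ERV3-1 (201, 461 and 598) rose, the latter not without decitabine 120 h replicate 2 (limma adjusted p = 0.113).

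**Figure D4:**
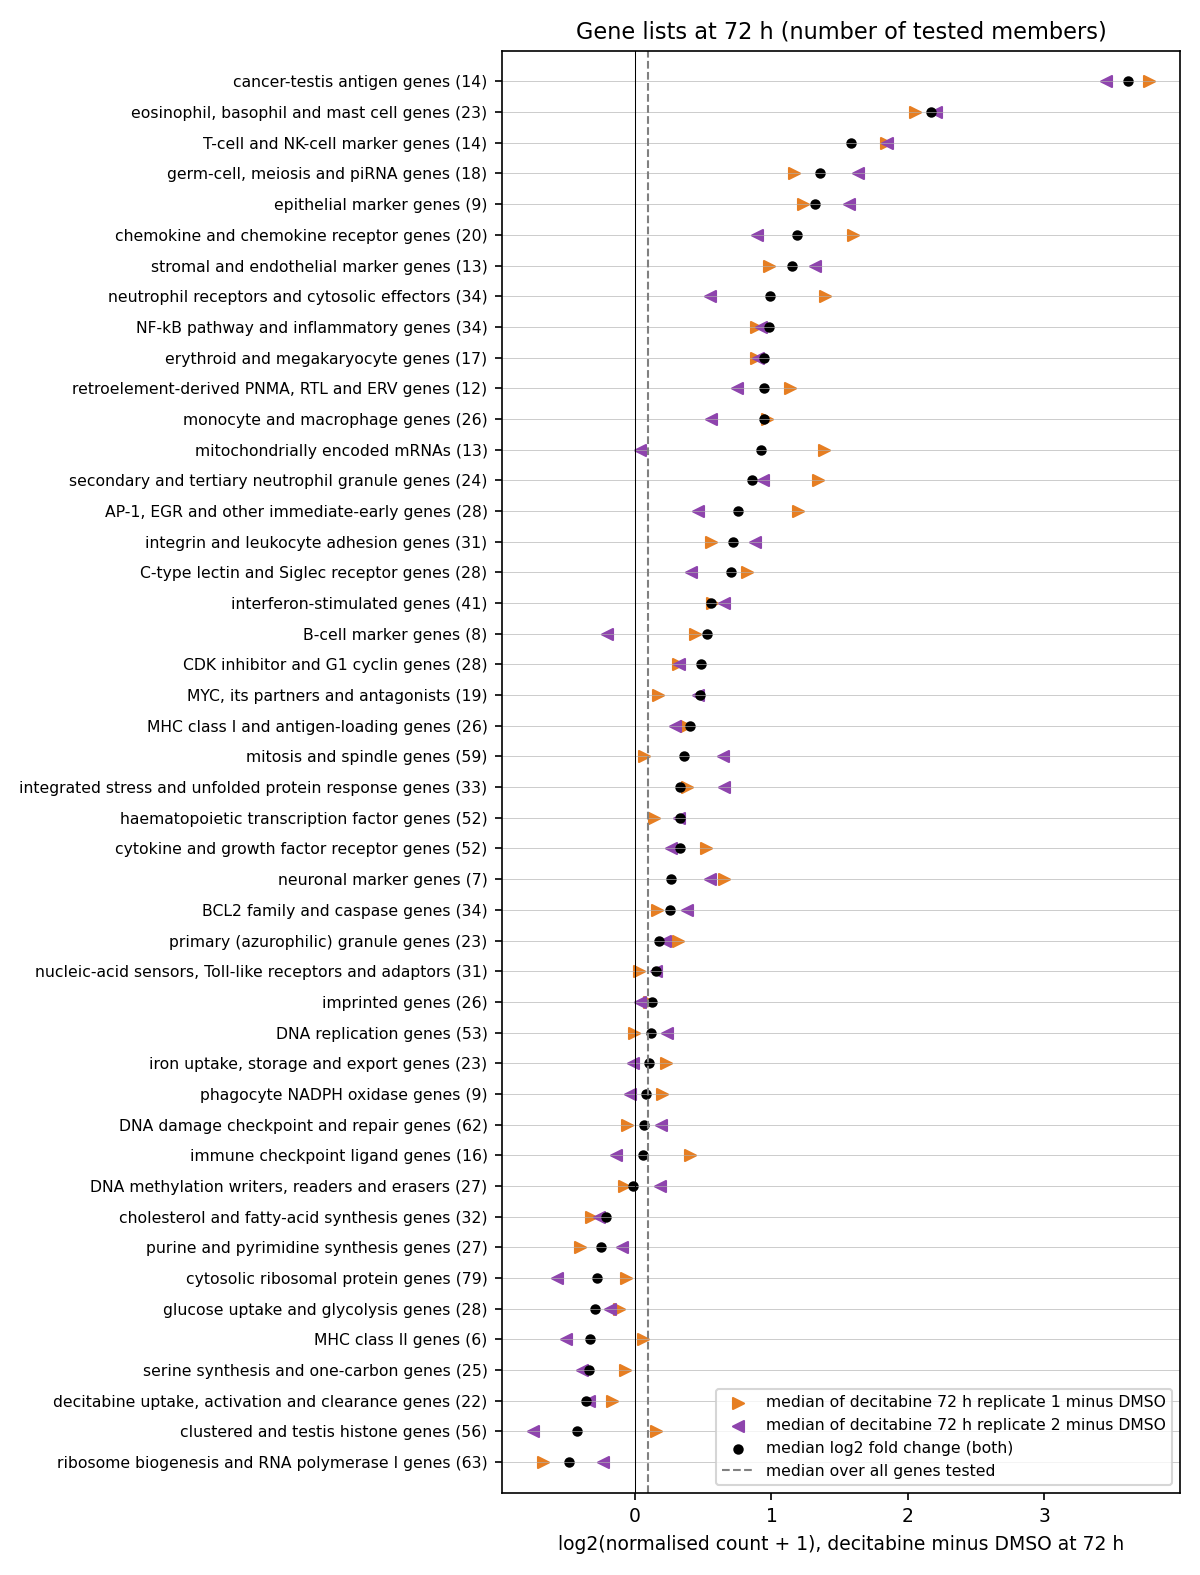
Median difference of log2(normalised count + 1), decitabine minus DMSO at 72 h, over the tested members of each list shown, on the x axis, with black points for the fitted fold change and triangles for each decitabine library. The dashed line is the median over all genes tested, 0.09. Cancer-testis genes have the highest median, 3.61, and ribosome biogenesis genes the lowest, -0.48.

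The lists hold 89 of the 303 genes called higher and 9 of the 50 called lower, so most calls lay outside them. By GENCODE 29 type, 86.5% of the genes called higher and 96% of those called lower were protein coding, against 76% of the genes tested. Long non-coding genes were 8.58% of those called higher, against 15.1% of the genes tested. Both decitabine libraries lay above all 5 DMSO libraries in 298 of the 303, which held for 18.2% of genes tested, and below all 5 in 46 of the 50, against 12.6%. In SNORA18, AC026740.3 and AC008033.3, called higher from a DMSO library listed at 0 and named after their values were seen, no decitabine value exceeded the highest of the other DMSO libraries.

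The called genes were compared with the same treatment at 6 and 120 h. At 6 h, after the first addition, limma called 0 genes, with 541 at an unadjusted p under 0.05, and the genes called higher at 72 h had a median log2 fold change of 0.01 there. At 120 h limma called 1601 higher (9.91%) and 969 lower (6%). Of the 303 genes higher at 72 h, 282 (93.1%) were also called higher at 120 h, where they were 17.6% of the calls, and of the 50 lower genes 42 (84%), which were 4.33%. The comparisons at 72 and 120 h share no libraries but share the estimate of the spread. The median log2 fold change of the 303 was 2.68 at 72 h and 2.95 at 120 h, and that of the 50 was -1.54 and -1.38.

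The log2 fold change at 72 h differed from that at 6 h in 99 genes (0.613%), and 87 of the 303 and 5 of the 50 were among them. By sign, it was higher at 72 h in 90 (0.557%) and lower in 9 (0.0557%). The 9 include genes that fell at 72 h, such as MYC. Between 72 and 120 h no difference of effect was called, with a smallest limma adjusted p of 0.276 and 1022 genes at an unadjusted p under 0.05. Without decitabine 72 h replicate 1 that count was 2901, and it was 0 with any of the other 9 libraries left out. In the fitted values GCNA (5.97 at 72 h and 4.84 at 120 h), MAGEB2 (5.06 and 3.74) and HGF (1.80 and 0.80) were larger at 72 h, and DAZL (4.95 and 6.56), CR1 (2.04 and 3.87), EPX (3.82 and 5.99) and IRF8 (-1.50 and -2.47) were larger at 120 h, none of these differences being called. In 126 of the 303 the fitted effect was larger at 72 h than at 120 h.

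**Figure D5:**
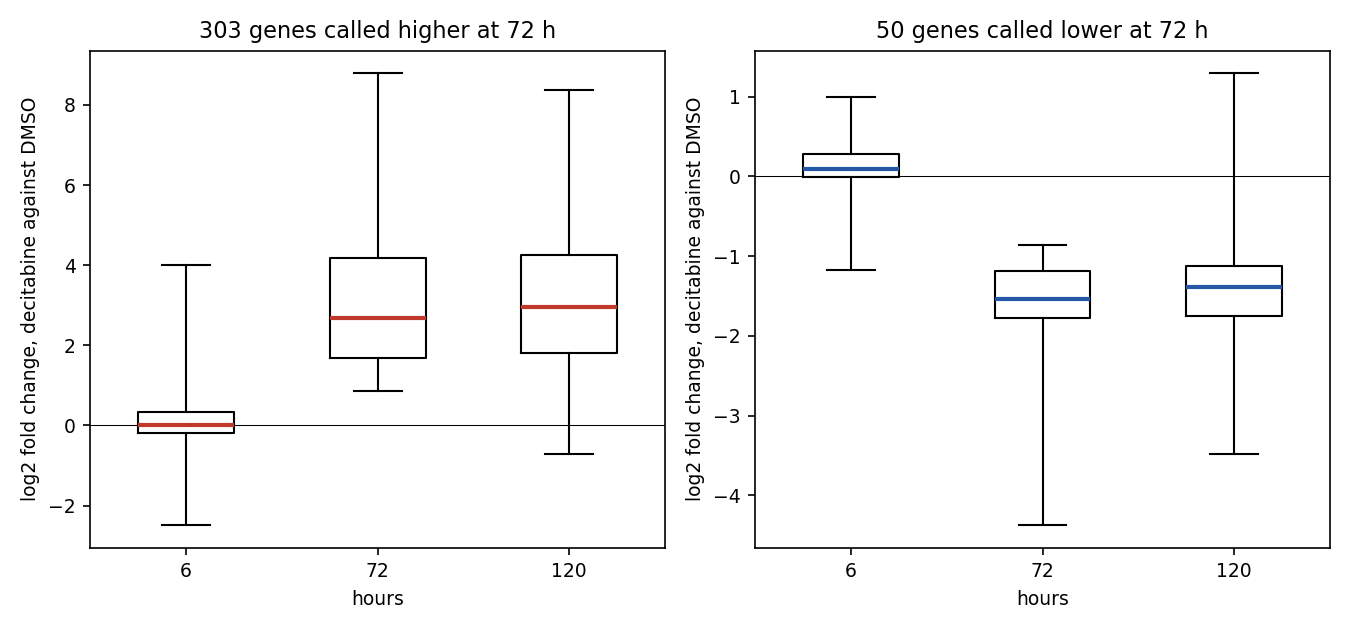
Log2 fold change of decitabine against DMSO at 6, 72 and 120 h (x axis) for the 303 genes called higher (left) and the 50 called lower (right) at 72 h. Boxes give the quartiles and the median and whiskers the lowest and highest gene. The medians are 0.01, 2.68 and 2.95 for the first set and 0.09, -1.54 and -1.38 for the second, and the 72 h values are those that chose the genes.

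The number of calls rests on single libraries. Of the 115 called genes that the rule on naming picked, 61 were called in all 10 leave-one-out fits and 32 lost the call in 8 or more. Over all calls, 128 of the 303 and 9 of the 50 were called in all 10, the 9 including MYC, IRF8, MS4A6A, CDK3, BCAS3, MATK, LRRC34 and TTC7A. These fits could not leave out the single DMSO library at 72 h, on which every call rests. In BCAS3 that library stood above all other DMSO libraries. MATK, a kinase of blood cells, stood at 545 in DMSO and at 158 and 173 with decitabine. Leaving out decitabine 120 h replicate 1 gave 130 genes called higher and 13 called lower. Leaving out decitabine 72 h replicate 1, which leaves that arm with a single library, gave 2689 and 2070.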

How the data were processed

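RNA-seq of HL-60 cells was deposited as 1 table of normalised counts (a signal per gene, counts divided by a size factor per library by the authors, so not whole counts) for 60240 genes, 20846 of them at 0 in every library. The submitters' processing notes name hg38, Salmon 1.2.1, STAR, featureCounts, DESeq2 and limma. Their settings and the annotation release are not given in the sources used here, and neither is whether counting used strand.

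Low values were whole multiples of 1 step (tolerance 0.01) for too few genes to recover reads, so no count model was used. The step gave the estimated depth of each library, and the number of libraries rather than this depth limits the precision. Genes at 10 or more in at least 2 libraries were kept (16152), and log2(value + 1) was fitted with limma 3.58.1 in R 4.3.3 (lmFit, eBayes with trend, Benjamini-Hochberg adjustment) over 11 libraries in 6 groups, with 5 residual degrees of freedom. The spread of the 72 h DMSO group, a single library, was thereby taken from the other groups. The fit was tested on simulated data. Gene coordinates and promoters came from RefSeq on GRCh38 by symbol, and gene types from GENCODE 29.

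Named genes were the 12 called higher and 10 called lower with the largest change in mean, the 10 largest fold increases at 50 or more in all DMSO libraries, the 10 largest under 10 in all of them, the 12 largest fold decreases, up to 4 called members of each of 48 lists (1807 genes, 1303 tested), and genes of drug action, lineage and cycle whether or not called. The comparison, its members and the lists were chosen with earlier results of these data known. Alternatives were other pseudocounts, filters, normalisation, variance estimates, controls, a block on replicate number, and each library left out in turn. A few genes are not reported here.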

Additional observations from a re-analysis of the deposited data

Results flagged for a closer look

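By the test of the difference itself in the same limma fit, the log2 fold change of decitabine against DMSO differed between 72 and 6 h. It was higher at 72 h in 90 genes and lower in 9. Of the named genes, the difference (72 h minus 6 h, on the log2 scale) was 8.12 for COL14A1, 7.32 for MAEL, 6.97 for AL160408.3, 6.82 for H1-6 and 6.75 for FAM9C, all higher at 72 h. It was -1.87 for MYC, -3.41 for MS4A6A and -4.31 for LINC02694, the last a gene whose 72 h DMSO library stood above the other DMSO libraries.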

How the results depend on the processing

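With the 72 h libraries alone (1 residual degree of freedom) limma called 0 genes higher and 0 lower, and 766 had an unadjusted p under 0.05. Against all 5 DMSO libraries the counts were 1402 higher and 834 lower, holding 298 of the 303 and 48 of the 50. Sample weights gave 75 and 5, and the lower count was 162 with no filter, 33 with no trend and 97 with quantile normalisation. The replicate block gave 194 higher and 21 lower, and 53 for 72 h against 6 h. The replicate numbers share only a number, since the correlations of same-numbered deviations ran from -0.0777 to 0.124. With 1 library left out, the higher count ran from 130 to 2689 and the lower from 13 to 2070, where the highest of each left out decitabine 72 h replicate 1, and the lone library of that arm is assumed to vary like the other groups. The difference between 72 and 120 h gave 6 genes with no filter, 1 with no trend and 0 to 2901 with 1 library left out. That between 72 and 6 h gave 29 with sample weights and 6 to 3741 with 1 library left out. The cause of these shifts was not tested. Leaving out the single DMSO 72 h library gives no comparison.

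In the uncalled genes that follow, the direction turned with the decitabine 72 h library left out. Without replicate 1 and without replicate 2, in that order, the log2 fold change was -0.33 and 0.32 for MPO, -0.62 and 0.11 for SPI1, -0.75 and 0.13 for CD33, -0.56 and 0.078 for CDKN2C, and -0.42 and 0.060 for GFI1. It was -1.13 and 0.30 for CEBPB, -0.90 and 0.16 for AZU1, -1.12 and 0.28 for PRTN3, 0.73 and -0.30 for DNMT3A, 0.81 and -0.10 for DCK, and 0.18 and -0.15 for UHRF1. It also turned under the replicate block for MPO (0.14) and UHRF1 (-0.0004311), with quantile normalisation for UHRF1 (-0.16), and against all 5 DMSO libraries for AZU1 (0.075) and for AVIL, a gene called lower (0.46).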
